A study of Mus musculus with 2 samples.

Results

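The genes described here, Fas, Ripk1, Cflar, Casp8, Ripk3, Mlkl, Zbp1 and Gsdmd, belong to the pathways through which inflammatory cytokines can kill a cell. They encode a death receptor, kinases, a caspase and its inhibitor, a nucleic acid sensor and pore formers. Binding of ELF3, an ETS-family factor found in epithelia, and of NFKB2, the p100 and p52 subunit of non-canonical NF-κB signalling, was measured by CUT&RUN, in which an antibody directs a nuclease to the bound protein and the DNA released around it is sequenced. There was 1 ELF3 library and 1 NFKB2 library, both from wild-type mouse kidney, as primary cultures of tubular epithelial cells, both treated with TNFα + IFNγ and both labelled batch 1. Doses and treatment times are not given in the labels, and untreated cells were not analysed here, so no value below is a response to the cytokines. Peak lists hold no expression values, so the labelled cell type was not checked against its markers.

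Members were the listed regions that overlapped 1 of 7 windows, each made of a gene and about 20 kb on either side, with Cflar and Casp8 in a joint window. These windows held 32 of 68319 ELF3 regions and 8 of 14217 NFKB2 regions. In the coordinates of the deposited files, which carry GRCm39 sequence names although mm10 is named in the submitters' processing notes, the windows in kb ran on chromosome 1 from 58730 to 58907 (Cflar and Casp8), chromosome 13 from 34167 to 34240 (Ripk1), chromosome 14 from 56002 to 56047 (Ripk3), chromosome 8 from 112018 to 112080 (Mlkl), chromosome 19 from 34248 to 34330 (Fas), chromosome 15 from 75714 to 75760 (Gsdmd) and chromosome 2 from 173028 to 173081 (Zbp1). Gene ends were taken as the window less 20 kb at each side, so distances to them are approximate. Exons, introns and untranslated regions were not assigned, because no annotation of the files' build was used. The end at which a gene starts was taken from the strand of its RefSeq promoter entry, and neighbouring genes from the order of protein-coding genes in RefSeq (GRCm38.p6), names only.

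TNFα and the Fas ligand act on receptors with a death domain. The kinase RIPK1 is recruited downstream, where it can favour survival through NF-κB or join FADD and caspase-8 in a death-inducing complex. cFLIP, the product of Cflar, pairs with caspase-8 and restrains it, and Cflar is a classical NF-κB target. When caspase-8 is held back, RIPK1 or the nucleic acid sensor ZBP1 can engage RIPK3, which phosphorylates MLKL so that it permeabilises the plasma membrane in necroptosis. Gasdermin D, from Gsdmd, forms the pores of pyroptosis once inflammatory caspases cleave it. ETS factors recognise sites around a GGAA core, and NF-κB dimers recognise sites that begin with a run of G and end with a run of C.

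Upstream sequences are shown for the 3 genes with an ELF3 region within 2 kb of the 5′ end implied by the window, which were Cflar, Ripk1 and Fas. The joint window implies no start for Casp8, so whether a region lies near that start was not tested. They are the 250 bases before each RefSeq start (GRCm38.p6, 5′ to 3′ in the direction of the gene), and Ripk1 has an entry for each of 2 starts. Capitals mark matches on either strand to an ETS sequence (CCGGAA or AGGAAG), an NF-κB form (GGG, any 5 bases, CC), the interferon-stimulated response element (GAAA, any 2 bases, GAAA) or the interferon gamma activated site (TTC, any 3 bases, GAA). Their coordinates belong to GRCm38.p6 and cannot be set against those of the regions, so whether the printed bases lie inside a region was not tested.
Cflar, chr1:58711241-58711490, + strand: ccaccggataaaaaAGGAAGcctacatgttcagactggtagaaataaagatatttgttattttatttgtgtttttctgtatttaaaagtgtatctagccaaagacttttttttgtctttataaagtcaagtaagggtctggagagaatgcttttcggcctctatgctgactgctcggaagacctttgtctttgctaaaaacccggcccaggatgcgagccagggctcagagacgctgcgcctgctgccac
Ripk1, first start, chr13:34002113-34002362, + strand: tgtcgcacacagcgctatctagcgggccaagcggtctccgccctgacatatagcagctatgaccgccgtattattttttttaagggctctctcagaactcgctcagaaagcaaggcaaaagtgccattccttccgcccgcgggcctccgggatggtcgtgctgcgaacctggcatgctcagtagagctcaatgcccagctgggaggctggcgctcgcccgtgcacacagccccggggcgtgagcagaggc
Ripk1, later start, chr13:34002624-34002873, + strand: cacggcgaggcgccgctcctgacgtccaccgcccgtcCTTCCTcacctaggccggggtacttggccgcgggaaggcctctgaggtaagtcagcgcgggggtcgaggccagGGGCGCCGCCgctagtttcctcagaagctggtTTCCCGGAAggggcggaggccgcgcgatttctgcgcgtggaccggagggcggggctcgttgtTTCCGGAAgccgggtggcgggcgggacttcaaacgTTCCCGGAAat
Fas, chr19:34290409-34290658, + strand: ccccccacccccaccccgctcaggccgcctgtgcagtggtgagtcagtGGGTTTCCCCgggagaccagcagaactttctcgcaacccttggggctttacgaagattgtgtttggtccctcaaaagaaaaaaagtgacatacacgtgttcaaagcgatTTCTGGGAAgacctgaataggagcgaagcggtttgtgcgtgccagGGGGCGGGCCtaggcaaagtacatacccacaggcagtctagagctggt

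The later Ripk1 start carried the most matches. CCGGAA occurred there at 3 places on the gene's strand, beginning 105, 44 and 8 bases before the start, and once on the other strand, overlapping the copy at 44. The copies at 105 and 8 each lay within a match to the gamma activated site, TTCCCGGAA, so those letters count for both motifs. The later start also had a match to AGGAAG on the other strand, beginning at 213, and GGGCGCCGCC, an NF-κB match, at 140. The stretch before the first Ripk1 start held none of the motifs searched. Upstream of Fas, GGGTTTCCCC began 202 bases before the start and matched the NF-κB form on both strands, and GGGGCGGGCC began at 48. TTCTGGGAA, a match to the gamma activated site, began 93 bases before the Fas start. Cflar had 1 match, AGGAAG at 236. By gene, CCGGAA was found upstream of 13.6% of all 27025 genes with an entry, AGGAAG of 32.3%, the NF-κB form of 48.7%, the interferon-stimulated element of 3.46% and the gamma activated site of 8.13%. Entries were found for 6 of the 8 genes. Of these 6, CCGGAA was upstream of 1 (Ripk1), AGGAAG of 2 (Cflar and Ripk1), the NF-κB form and the gamma activated site each of 2 (Fas and Ripk1), and the interferon-stimulated element of none. The entries of Casp8, Ripk3 and Mlkl held no match to any of these motifs. Gsdmd and Zbp1 had no entry. Of 32 other genes of death receptor signalling, necroptosis and pyroptosis, 28 had entries: CCGGAA was present in 10, among them Birc2, Birc3 and Tnfrsf1a, AGGAAG in 15, the NF-κB form in 22, among them Birc3 and Tnfaip3, the gamma activated site in 1, Tnfrsf1a, and the interferon-stimulated element in none. A match describes the sequence and is not a measured site.

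Signal is given as fragments over the summit of a region, recovered from the caller's fold and p-value, with exact Poisson 95% intervals for counting error only. Average coverage, which is also the lowest local background the caller used, was 1.22 fragments in the ELF3 library and 1.36 in the NFKB2 library, a ratio of 1.11 by which comparisons of the factors were adjusted. Each antibody had a single library, so no difference below could be set against the spread between replicates. The adjustment is for coverage only, and how well each antibody captured its factor was not measured. Ratios of fragments between the factors are therefore not ratios of bound protein. The median listed region held 22 fragments for ELF3 and 16 for NFKB2. Raised local backgrounds are given as multiples of the lowest levels of 1.22 and 1.36 fragments. These multiples have no intervals, and their counting error was not estimated.

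ELF3 was found in all 7 windows and NFKB2 in 3 of them. The joint Cflar and Casp8 window held 15 of the 32 regions for ELF3 and 6 of the 8 for NFKB2, and the Mlkl and Fas windows held 1 NFKB2 region each. ELF3 regions numbered 5 at Ripk1, 3 each at Ripk3 and Fas, and 2 each at Mlkl, Gsdmd and Zbp1. Density was 59.5 ELF3 and 14.9 NFKB2 regions per Mb over the windows, against 26.0 and 5.40 per Mb over autosomes and X, a stretch that includes gene-poor sequence. By window, NFKB2 density was 33.9 per Mb at Cflar and Casp8, 16.1 at Mlkl and 12.2 at Fas, while 4 windows had no NFKB2 region. ELF3 density ran from 32.3 per Mb at Mlkl to 84.7 at Cflar and Casp8. Leaving out the Cflar and Casp8 window, which made up 177 of the 538 kb, left 17 ELF3 and 2 NFKB2 regions. Each window was of a different length, from 45 kb at Ripk3 to 177 kb at Cflar and Casp8.

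**Figure D1:**
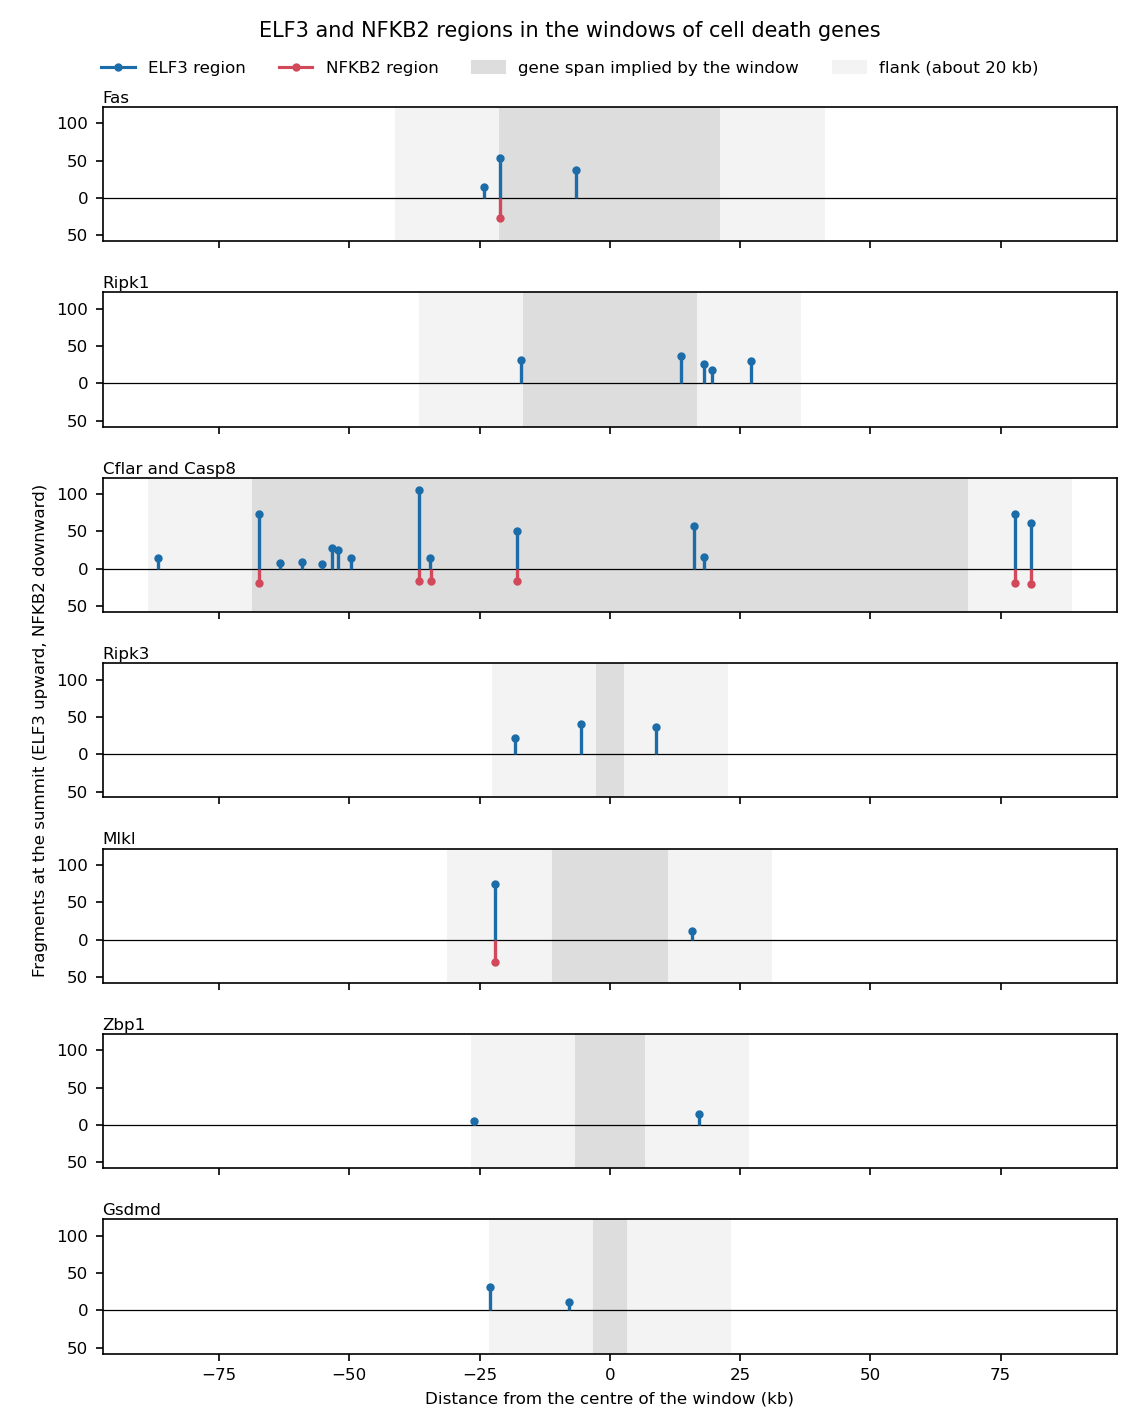
Fragments at the summit of every ELF3 region (upward) and NFKB2 region (downward) against the distance from the centre of each window in kb, with the implied gene span in dark grey and the flank of about 20 kb in light grey. NFKB2 regions appear in the windows of Fas, Cflar and Casp8, and Mlkl, each opposite an ELF3 region, and 6 of the 8 lie in the Cflar and Casp8 window.

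Fas encodes the death receptor itself. Its window held 3 ELF3 regions with 53, 37 and 14 fragments and 1 NFKB2 region with 27 (17.8 to 39.3). The strongest ELF3 region (chromosome 19, 34267496 to 34268147; 39.7 to 69.3 fragments) lay at the implied 5′ end, and the NFKB2 region (34267567 to 34268008) lay wholly inside it with its summit 31 bp away. Both antibodies therefore had a region at the implied start of the gene. Local background was raised at this place, to 2.43 times the lowest level in the ELF3 list and 3.05 times in the NFKB2 list. The NFKB2 value was the highest among the NFKB2 members. After adjustment for coverage NFKB2 had 0.459 times the ELF3 signal (0.278 to 0.743). The ELF3 region with 37 fragments (34282335 to 34282630) lay about 14.5 kb into the gene and had no NFKB2 region.

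Ripk1, the kinase at the branch between survival and death, had ELF3 regions with 31, 36, 26, 18 and 30 fragments in order along the chromosome, and no NFKB2 region. The first (chromosome 13, 34186088 to 34186966; 21.1 to 44.0 fragments) was 879 bp wide and had its summit about 0.648 kb before the implied 5′ end. The second (34217031 to 34217252; 25.2 to 49.8) had the most fragments but a lower −log10 q, 30.0 against 30.2, over a background of 1.62 times the lowest level. It lay about 2.83 kb before the implied 3′ end, and the other three lay beyond that end, towards Bphl. All 5 intervals overlap, which by itself does not settle the order, and ratios between these regions were not computed. The nearest NFKB2 region was 10.5 kb outside the window, past its right edge, with 9 fragments.

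Cflar and Casp8 stand next to each other on the same strand. The ELF3 region at the implied 5′ end of Cflar, the caspase-8 inhibitor, was the widest of all members at 3416 bp (chromosome 1, 58750278 to 58753693) and held 74 fragments (58.1 to 92.9). The NFKB2 region inside it (58750713 to 58752452), also the widest of its kind here at 1740 bp, held 19 fragments (11.4 to 29.7) over a background 2.29 times the lowest level, and covered 50.9% of the ELF3 region. Its −log10 q of 5.97 was the lowest among the 8 NFKB2 members. About 31.8 kb past the implied 5′ end lay the strongest ELF3 member (58781619 to 58782128), with 105 fragments (85.9 to 127), a −log10 q above that of 99.2% of all ELF3 regions and the background at its lowest level.

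Around that strongest region the factors differed. The next ELF3 region (58783926 to 58784133), with its summit 2.19 kb away, held only 14 fragments (7.65 to 23.5). NFKB2 had 17 fragments (9.90 to 27.2) at each of the pair, in 58781667 to 58781942 and in 58783937 to 58784190. ELF3 thus differed 7.50-fold between these neighbours (exact binomial 95% interval 4.28 to 14.2), while the NFKB2 ratio was 1.00 (0.480 to 2.08). The pair was singled out after its values were seen, and the intervals make no allowance for that.

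A further pair lay about 50.7 kb past the implied 5′ end of Cflar, with 51 ELF3 fragments (58800529 to 58800918) and 16 NFKB2 fragments (58800536 to 58800818), the fewest of the NFKB2 members. The windows do not fix where Cflar ends and Casp8 begins, so regions inside the joint span were not assigned to either gene. The strongest ELF3 member without NFKB2 was also in this span (58834423 to 58835148), with 57 fragments (43.2 to 73.9). Over the whole list, 63.8% of ELF3 regions at the lowest background with 57 or more fragments overlapped an NFKB2 region. The 9 ELF3 regions of the window without NFKB2 ranged from 6 to 57 fragments.

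Past the 3′ end of Casp8, the initiator caspase, a pair of shared regions lay in the flank, towards Gm28802. ELF3 had 73 fragments at 58896007 to 58896461, about 9.20 kb beyond the implied end, and 61 at 58898858 to 58899357, about 12.2 kb beyond. NFKB2 had 19 and 20 fragments there, in 58896110 to 58896407 and 58899044 to 58899295. The second of these had the highest NFKB2 −log10 q of the window, 12.8. Both lay outside the genes for which the window was drawn.

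Ripk3, the kinase that activates MLKL, had no region of either factor within its implied span of about 5 kb. ELF3 regions lay on both sides: 22 fragments at chromosome 14, 56005286 to 56006271, 40 at 56018808 to 56019034, about 3.12 kb past the 3′ end on the side of Adcy4, and 36 at 56033152 to 56033544, about 6.41 kb before the 5′ end on the side of Nfatc4. The last 2 had overlapping intervals (28.6 to 54.5 and 25.2 to 49.8). No NFKB2 region was listed in the window, and the nearest lay 39.8 kb outside it. Together the Ripk1 and Ripk3 windows held 8 ELF3 regions of 18 to 40 fragments without NFKB2. Of all 28667 ELF3 regions with 18 to 40 fragments, 17.7% overlapped an NFKB2 region.

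Mlkl, the pore-forming executor of necroptosis, likewise had no region inside its implied span. Its window held the NFKB2 member with most fragments, 30 (20.2 to 42.8; chromosome 8, 112026791 to 112027099), inside an ELF3 region of 74 fragments (58.1 to 92.9; 112026612 to 112027126). Their summits were 8 bp apart, the shortest distance among the pairs. This pair lay about 11.1 kb past the 3′ end of Mlkl, on the side of Rfwd3, over a raised background of 1.62 times the lowest level for ELF3 and 2.29 times for NFKB2. The other ELF3 region, with 12 fragments (112064525 to 112065198), lay about 4.82 kb before the 5′ end on the side of Fa2h.

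Zbp1 and Gsdmd had 2 ELF3 regions each and none inside their implied spans. At Zbp1, an interferon-inducible sensor, ELF3 had 6 fragments (2.20 to 13.1) at chromosome 2, 173028349 to 173029139, and 15 (8.40 to 24.7) at 173071445 to 173072786, about 10.5 kb from the gene on the side of Pmepa1. Both were below the median of 22 of the whole list, and the first had a −log10 q above only 0.583% of all ELF3 regions. At Gsdmd, ELF3 had 11 fragments (5.49 to 19.7) at chromosome 15, 75728854 to 75729174, about 4.87 kb outside the gene on the side of Zc3h3. The other Gsdmd region, with 31 fragments (75713713 to 75714007), met the window by only 7 bp. It overlapped an NFKB2 region of 15 fragments (75713666 to 75713954) that ended 0.046 kb outside the window and was not counted as a member. No region was listed within 2 kb of either end of these genes.

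**Figure D2:**
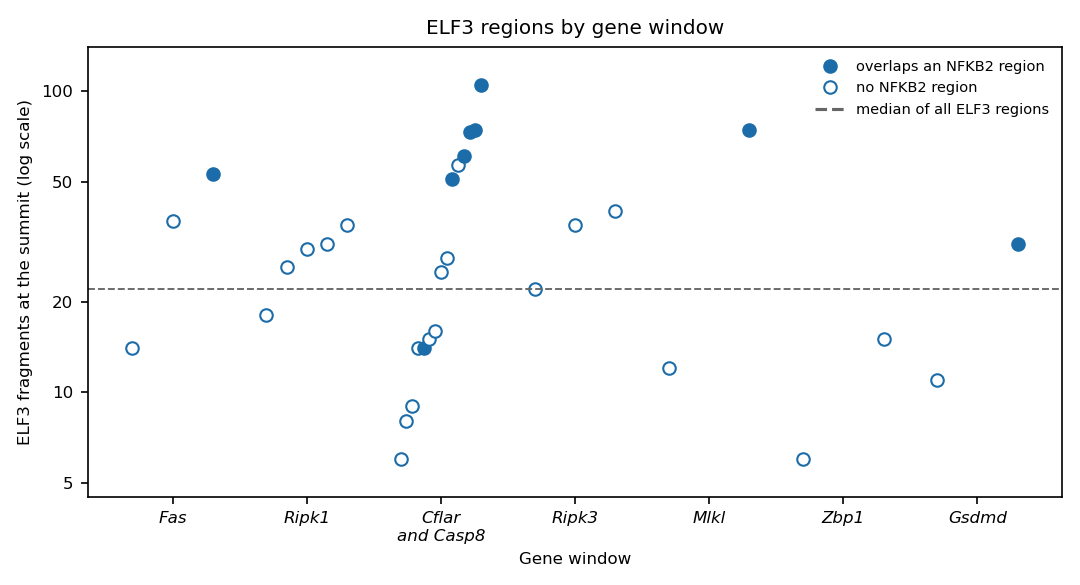
ELF3 fragments at the summit of each of the 32 regions, on a log scale, by gene window; filled points overlap an NFKB2 region, open points do not, and the dashed line is the median of 22 over all ELF3 regions. Values run from 6 to 105 in the Cflar and Casp8 window, all Ripk1 and Ripk3 points are open, and both Zbp1 points lie below the line.

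Over all windows, 9 of 32 ELF3 regions overlapped an NFKB2 region (28.1%, exact binomial 95% interval 13.7 to 46.7), beside 19.7% of the whole list, which the interval includes. Without the Cflar and Casp8 window it was 3 of 17 (17.6%, 3.80 to 43.4). With both lists limited to −log10 q of 10 or more it was 3 of 21 (14.3%, 3.05 to 36.3), beside 11.5% of the whole list under that limit. Among the 9 members in the highest 20% of −log10 q, 7 overlapped one (77.8%, 40.0 to 97.2), beside 51.9% of all ELF3 regions in that class. Below it the numbers were 2 of 23 members (8.70%, 1.07 to 28.0) and 11.4% of all. That class held 28.1% of the members (13.7 to 46.7) and, with ties, 20.4% of the list. Each share over the whole list thus lay within the interval of the members, at this number of regions. The intervals treat regions as separate draws, although 6 of the 9 shared members lay in the Cflar and Casp8 window. They do not measure the spread between genes or between libraries. The 9 shared ELF3 members had a median of 61 fragments (range 14 to 105) and the 23 others a median of 18 (range 6 to 57). Over the whole list these medians were 43 and 19.

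All 8 NFKB2 members lay on an ELF3 region, as did 96.8% of all NFKB2 regions. Summits of the pairs were 8 to 82 bp apart with a median of 40 bp, against 41 bp over all 13769 pairs, and all 8 lay within 100 bp, as did 75.5% of all. The median NFKB2 over ELF3 ratio was 0.289 (range of the 8 pairs 0.146 to 1.09), and over all pairs it was 0.365 (quartiles 0.257 and 0.530). NFKB2 was more than 2-fold below ELF3 in 7 of 8 pairs, beside 71.7% of all pairs, and above it in 1, beside 5.11%. That 1 pair was the weak one beside the strongest ELF3 member, with a ratio of 1.09 (0.508 to 2.40), an interval that includes equal signal. The other 7 ratios had intervals wholly below 1, the lowest being 0.146 (0.0819 to 0.245) at the strongest ELF3 region. ELF3 fragments varied 7.50-fold among the pairs and NFKB2 fragments 1.88-fold, from 16 to 30. NFKB2 also had the narrower spread over all listed regions, with quartiles of 13 and 22 fragments, beside 14 and 36 for ELF3. Regions with weaker NFKB2 signal are not listed, so the pairs leave out the lowest ratios.

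**Figure D3:**
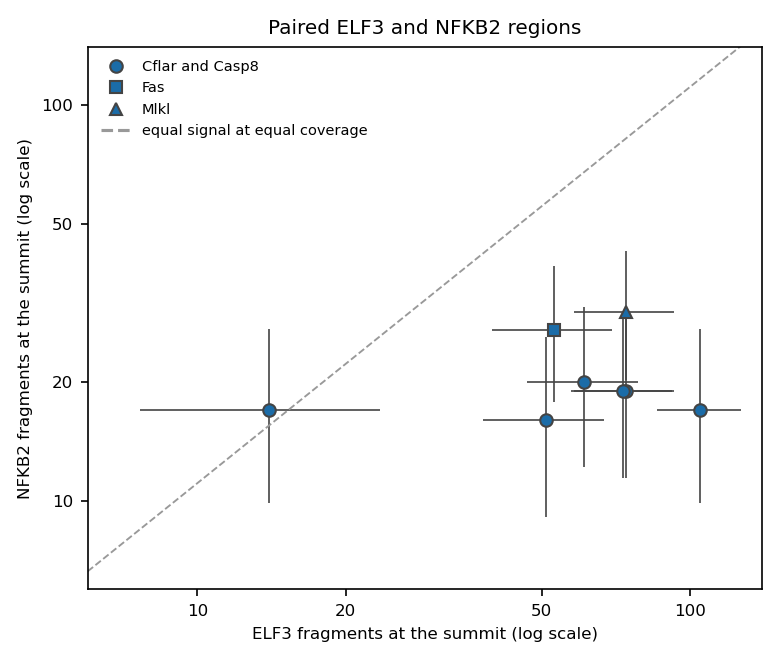
NFKB2 against ELF3 fragments at the summits of the 8 pairs, both axes on a log scale, with exact Poisson 95% intervals; the dashed line marks equal signal at equal coverage. The pairs lie below the line apart from the one with 14 ELF3 and 17 NFKB2 fragments, and NFKB2 stays between 16 and 30 while ELF3 runs from 14 to 105.

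A raised local background was found at 11 of the 32 ELF3 members and 3 of the 8 NFKB2 members. The latter were those at the 5′ ends of Fas and Cflar and the one beside Mlkl. The other 21 ELF3 and 5 NFKB2 members were at the lowest background, as were 70.8% and 70.3% of all listed regions. The 3 pairs at the lowest background in both lists had a median NFKB2 over ELF3 ratio of 0.283, beside 0.289 for all 8. The fewest fragments listed at the lowest background were 6 for ELF3 and 8 for NFKB2. An ELF3 region without NFKB2, as in the windows of Ripk1, Ripk3 and Zbp1, may therefore carry NFKB2 signal below that limit.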

How the data were processed

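Peak lists of 1 ELF3 and 1 NFKB2 library were used. MACS2 was the authors' caller, per the submitters' processing notes. Its version, its settings and control, and how reads were aligned and filtered, are not stated there or in the labels. The deposited lists give a score, a fold over local background (a ratio), −log10 p and −log10 q at 1 summit per region. The deposited score is 10 times −log10 q without its decimals for at least 99.9% of regions, and the summit lists repeat the same positions. Coordinates are printed 1-based as deposited; the design names an IgG control, which was not analysed here.

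The deposited fold adds 1 to signal and background and the p-value is a Poisson tail, so both together fix the number of fragments and the background. All members were solved to within 0.01 of −log10 p. A fragment counted 1.00 for ELF3 and 0.964 for NFKB2, in the caller's scaled units. On 3000 simulated regions per library, 100.0% of ELF3 and 99.9% of NFKB2 fragment numbers were recovered. These regions were simulated with the same formulas, so the result checks the arithmetic and not whether the caller used those formulas. An overlap of 1 bp or more made regions shared, and an NFKB2 region was paired with the overlapping ELF3 region of most fragments. Shares and ratios have exact binomial intervals, apart from the median ratio of the pairs, which is given with the lowest and highest ratio. No p-value was computed, since regions are not replicates.

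Members and lists were chosen with earlier results of these data known. The text names, per window, the ELF3 and NFKB2 regions of highest −log10 q, those within 2 kb of the 5′ end, the pair of highest ratio and NFKB2 regions without ELF3, of which there were none; any further region was picked with its values in view. Motif searches and alternative limits, flanks, overlap rules and pairings were run with Python 3.11.15, scipy 1.17.1 and pandas 2.3.3.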

Additional observations from a re-analysis of the deposited data

How the results depend on the processing

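Of 63 values under other settings, 57 stayed within 1.5 times the reported count or within the reported interval or range, and 6 counts moved. Some of the 57 were fixed in advance and say nothing about stability. The median ratio of a subset of the same pairs cannot leave their range, so leaving out windows, flanks or raised backgrounds could not move it. With every NFKB2 member on ELF3, leaving out windows or flanks could not change that share either. At −log10 q of 10 or more, 21 ELF3 and 3 NFKB2 regions remained, since fewer regions pass by construction. Without flanks the windows held 15 ELF3 and 5 NFKB2 regions, in less sequence. Leaving out each window in turn gave 17 to 30 ELF3 and 2 to 8 NFKB2 regions, with the lowest values without the Cflar and Casp8 window. The share of ELF3 regions with NFKB2, 28.1% as reported, ranged from 14.3% at −log10 q of 10 or more to 33.3%, and was 17.6% without the Cflar and Casp8 window; the median ratio ranged from 0.259 to 0.412, and every NFKB2 member lay on ELF3 under all settings run. Only the setting without adjustment for coverage, with a ratio of 0.321, was added to the planned settings after the data were seen. The members and lists to which all settings were applied had been chosen with earlier results of these data known. No paired analysis was possible because each antibody has 1 library. The number of fragments limits the order of regions of similar strength.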
